A study of Danio rerio with 6 samples.

Results

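The red, blue and ultraviolet (UV) cone opsins of zebrafish are 4 genes: opn1lw1 and opn1lw2 of red cones, opn1sw2 of blue cones and opn1sw1 of UV cones. They were taken by their Ensembl identifiers (ENSDARG00000044862, ENSDARG00000044861, ENSDARG00000017274 and ENSDARG00000045677), and all 4 were present among the 25190 genes of the deposited count table and the 32264 genes of the deposited FPKM table. RNA-Seq compared 3 pde6c samples with 3 WT samples of whole retina at 5 days post-fertilization (dpf). Each sample pooled 3 retinas, each from a different larva. The pde6c larvae were homozygous for the w59 allele of pde6c and came from crosses of heterozygous carriers. The WT larvae came from crosses of WT siblings of those carriers, so genotype and parentage cannot be told apart. All larvae were picked by their optokinetic response, kept in the dark before dissection and genotyped afterwards, and the RNA of every sample was amplified before sequencing.

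Opsins are the light-sensing receptors of photoreceptors. A cone opsin bound to a retinal chromophore absorbs light and activates cone transducin, which in turn activates the cone phosphodiesterase whose catalytic subunit is Pde6c. The enzyme degrades cGMP, the cation channels of the outer segment close, and kinases and arrestins then shut the opsin off. Zebrafish larvae have red, green, blue and UV cones, and each kind is marked by the opsins it makes. In whole retina the RNA of an opsin depends on the number of such cones and on how much each makes. The red opsins are tandem copies. In development opn1lw2 is switched on first, and opn1lw1 follows later in the growing retina.

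On the GRCz10 build, opn1sw2, opn1lw1 and opn1lw2 stood side by side on the plus strand of chromosome 11. The span of opn1sw2 ran from 25222081 to 25237787, that of opn1lw1 from 25240027 to 25242421 and that of opn1lw2 from 25243430 to 25245590. Only 2239 bases lay between opn1sw2 and opn1lw1, and 1008 between opn1lw1 and opn1lw2. The UV opsin opn1sw1 stood apart on the minus strand of chromosome 4, from 13578816 to 13581499. Fragments were counted over these whole spans, introns included, without regard to strand. Fragments that mapped to several places or touched more than 1 gene were dropped. For opn1sw2 this removed the fragments on 1640 bases that it shares with hcfc1a on the opposite strand, whereas the other 3 spans touched no other gene. How many fragments of the closely similar red opsins were dropped or placed on the wrong copy was not tested, so the small opn1lw1 counts carry that uncertainty.

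Between 18757605 and 22510222 fragments per sample were counted on genes, so that 3 counts, taken as the smallest level this depth can show, amounted to 0.129 to 0.169 CPM (counts divided by a TMM-scaled library size). Counts of replicates differed by more than counting noise, with a chi-square of 34.8 to 49.2 per degree of freedom. The mutated gene was read from FPKM (fragments scaled by transcript length and by the number mapped in the sample). Counts could not be used, because its span lies within that of another gene and its count was 0 in every sample. FPKM of pde6c was 60.1, 140 and 84.8 in pde6c replicates 1 to 3, against 445, 655 and 520 in WT replicates 1 to 3. All pde6c samples lay below all WT samples (95.0 ± 41.0 against 540 ± 106 FPKM, SD, n = 3 each). Limma on log2(FPKM + 1) gave a difference of -2.56 with an adjusted p of 0.0448, in the direction that the column labels imply.

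All 4 opsins separated the genotypes. The UV opsin opn1sw1 fell to 22.1% of WT, the red opsin opn1lw2 to 53.6% and the blue opsin opn1sw2 to 57.6%, whereas the second red opsin, opn1lw1, rose 3.16-fold at a level far below the rest. By edgeR's quasi-likelihood test all 4 had an adjusted p under 0.1, which 3.69% of the 17242 genes tested had in either direction, and by DESeq2's Wald test all 4 passed as well, where 5.91% of genes did. In CPM, too, no sample of 1 genotype overlapped the other for any of the 4, which held for 16.9% of all genes tested (8.15% with pde6c higher and 8.75% with pde6c lower). In whole retina, fewer cones of a kind and less opsin RNA per cone cannot be told apart.

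**Figure D1:**
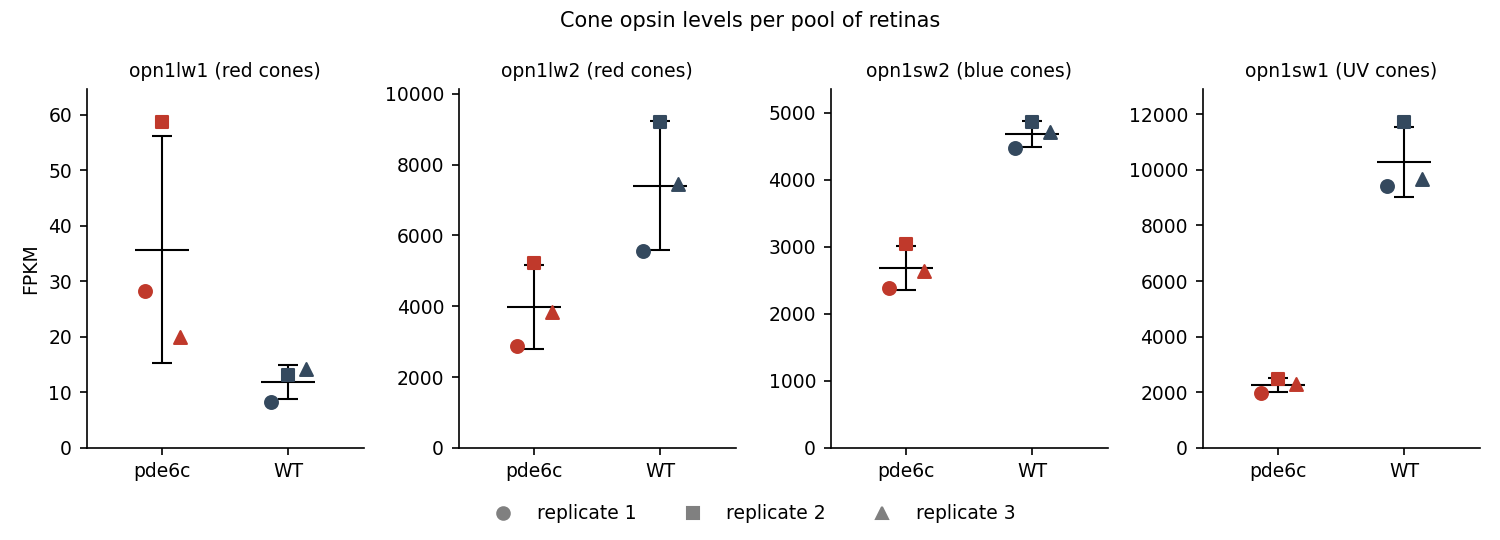
FPKM of each cone opsin in every sample, pde6c on the left and WT on the right of each panel. Symbols are pools of 3 retinas, the horizontal line is the mean and the bar is the SD (n = 3). Each panel has its own axis from 0. All pde6c samples lie above the WT samples for opn1lw1 and below them for the other 3 opsins.

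The main red opsin, opn1lw2, had 2878, 5233 and 3843 FPKM in pde6c replicates 1, 2 and 3, against 5551, 9211 and 7452 FPKM in WT replicates 1, 2 and 3. Replicate 2 was the highest and replicate 1 the lowest in both genotypes, and the highest pde6c sample came close to the lowest WT sample without reaching it. Its mean was 3985 ± 1184 FPKM in pde6c and 7404 ± 1830 FPKM in WT (SD, n = 3 each). The counts behind this were 45743, 69635 and 46931 in pde6c and 89813, 100419 and 91095 in WT. They gave a log2 fold change of -0.90 (SE 0.18, adjusted p = 0.00817 by edgeR). Of the 3 opsins that fell, opn1lw2 had the widest spread between replicates, with a highest pde6c sample 1.82 times the lowest in FPKM and a highest WT sample 1.66 times the lowest.

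The second red opsin, opn1lw1, went the other way. It had 28.3, 58.8 and 20.0 FPKM in pde6c replicates 1, 2 and 3, against 8.29, 13.1 and 14.1 FPKM in WT replicates 1, 2 and 3. The pde6c samples varied 2.94-fold among themselves, and replicate 2 had more than the other pde6c samples, but even the lowest, replicate 3, was above every WT sample. Counts were 481, 791 and 272 in pde6c and 125, 143 and 184 in WT, all far above the smallest level the depth can show. The log2 fold change was 1.66 (SE 0.38, adjusted p = 0.0248 by edgeR), and 1.4% of all genes tested rose at this threshold. This call rested on single samples: without pde6c replicate 2 the log2 fold change was 1.18 (adjusted p = 0.207 by edgeR), and without WT replicate 1 it was 1.49 (adjusted p = 0.115 by edgeR).

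Within the red opsins, the share of counts that fell on opn1lw1 was 1.04% (95% Wilson interval 0.952% to 1.14%), 1.12% (1.05% to 1.20%) and 0.576% (0.512% to 0.649%) in pde6c replicates 1, 2 and 3. In WT replicates 1, 2 and 3 it was 0.139% (0.117% to 0.166%), 0.142% (0.121% to 0.167%) and 0.202% (0.175% to 0.233%). The intervals cover counting error only. No interval of a pde6c sample touched that of a WT sample, although pde6c replicate 3 stood below the other 2 pde6c samples. Red opsin RNA was therefore almost wholly opn1lw2 in both genotypes.

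The blue opsin, opn1sw2, fell by a factor close to that of opn1lw2. FPKM was 2384, 3036 and 2643 in pde6c replicates 1, 2 and 3, against 4468, 4866 and 4712 in WT replicates 1, 2 and 3. The highest pde6c sample was well below the lowest WT sample, and the highest WT sample was only 1.09 times the lowest. Means were 2688 ± 328 FPKM in pde6c and 4682 ± 201 FPKM in WT (SD, n = 3 each). With 28472 to 34914 counts in pde6c and 45646 to 63387 in WT, the log2 fold change was -0.80 (SE 0.13, adjusted p = 0.00157 by edgeR).

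The UV opsin, opn1sw1, fell the most. It had 1987, 2484 and 2291 FPKM in pde6c replicates 1, 2 and 3, against 9421, 11731 and 9674 FPKM in WT replicates 1, 2 and 3. The groups were far apart, since every WT sample exceeded every pde6c sample several-fold while the highest replicate was 1.25 times the lowest in both genotypes. Means were 2254 ± 251 FPKM in pde6c and 10276 ± 1267 FPKM in WT (SD, n = 3 each). Counts were 34751, 37265 and 31186 in pde6c and 163843, 142179 and 130217 in WT, for a log2 fold change of -2.18 (SE 0.14, adjusted p = 2.03e-07 by edgeR). This was a 4.53-fold lower level, and its p-value ranked 2 of the 17242 genes tested.

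These directions held in every alternative that was tried, but the calls of 3 opsins did not. On log2(FPKM + 1) with limma, where 0.988% of 15782 genes passed in either direction (0.507% higher and 0.482% lower in pde6c), only opn1sw1 passed (difference -2.19, adjusted p = 0.0183). The limma differences of opn1lw2 (-0.91, adjusted p = 0.404), opn1sw2 (-0.81, adjusted p = 0.276) and opn1lw1 (1.40, adjusted p = 0.304) were of like size or, for opn1lw1, smaller than those from counts, but did not pass.

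**Figure D2:**
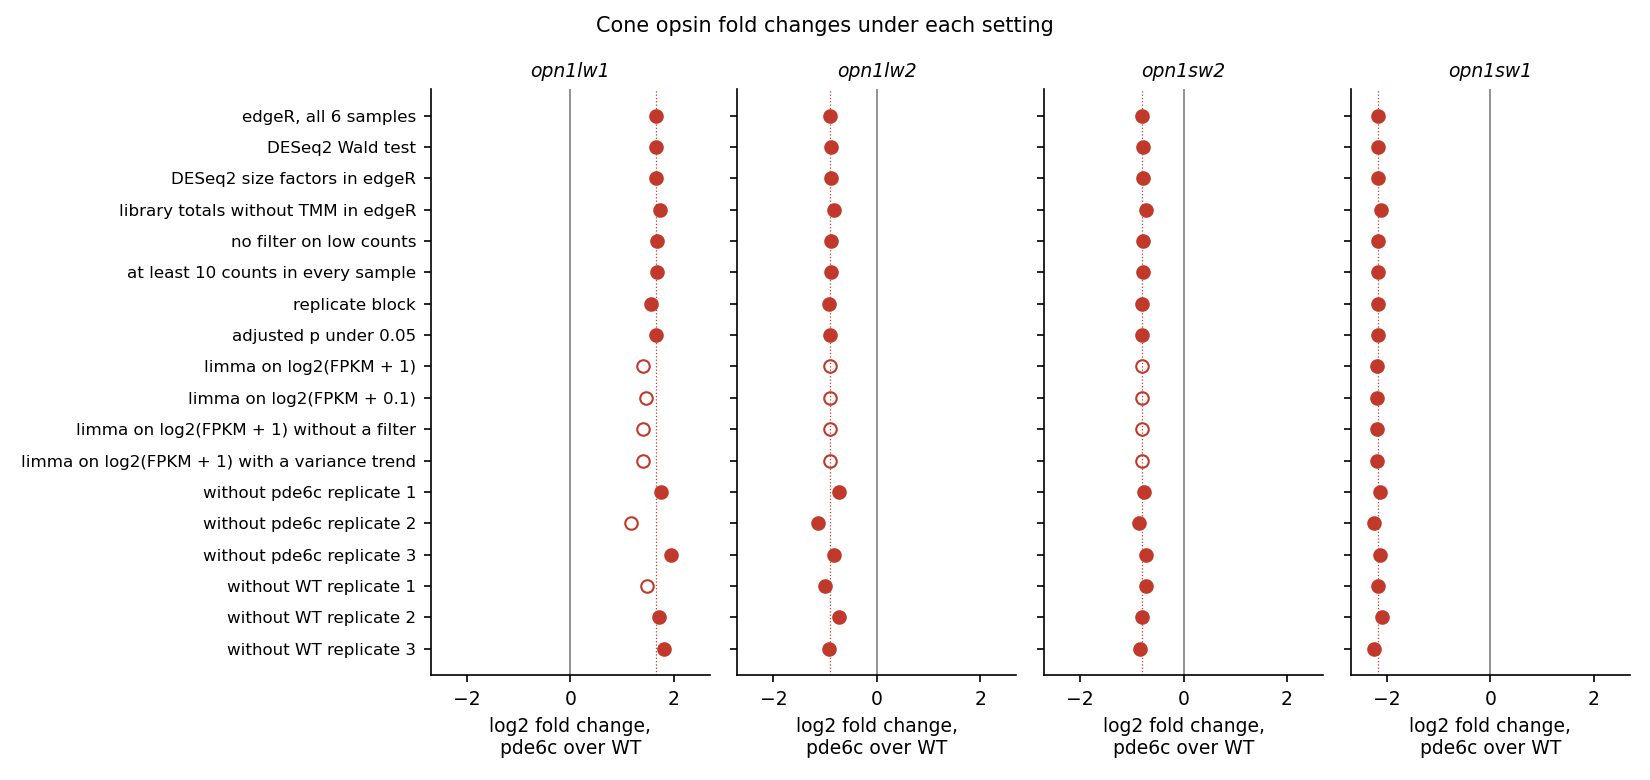
Log2 fold change (pde6c over WT) of each cone opsin under each setting, 1 row per setting. Filled points passed the threshold on the adjusted p and open points did not, and the dotted line marks the value from edgeR with all 6 samples. No point crosses 0, and opn1sw1 is filled throughout while opn1lw1 is open in the 4 limma fits and in 2 of the fits that leave out a sample.

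The order of the opsins by FPKM, a measure per length, changed with genotype. In pde6c it was opn1lw2, opn1sw2, opn1sw1 and opn1lw1, and each of the 3 samples had this order. The ranges of opn1lw2 and opn1sw2 overlapped in pde6c, as did those of opn1sw2 and opn1sw1, so these neighbours were ordered within each sample but not across samples. In WT the order was opn1sw1, opn1lw2, opn1sw2 and opn1lw1, and no neighbouring ranges overlapped. By FPKM the UV opsin was thus the highest of the 4 in WT and the third in pde6c. Among all genes of the FPKM table it ranked 57 to 93 in pde6c and 23 to 49 in WT, while opn1sw2 ranked 49 to 84 in pde6c and 53 to 86 in WT. Ranks by count differed. Among all genes of the count table, opn1sw1 ranked 14 to 24 in pde6c and 1 to 3 in WT. By the same measure opn1sw2 ranked 19 to 30 in pde6c and 9 to 11 in WT.

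The other length scale available, CPM per kilobase of gene span, gave the same order in WT and another in pde6c. There opn1sw2, whose span of 15707 bases is much longer than the 2161 to 2684 bases of the others, had 94.8 in pde6c and 165 in WT. On that scale opn1lw2 had 1158 in pde6c and 2161 in WT, opn1sw1 had 590 in pde6c and 2672 in WT, and opn1lw1 had 9.87 in pde6c and 3.12 in WT. The WT ranges of opn1sw1 and opn1lw2 overlapped there. Both scales put opn1lw2 first in pde6c, opn1sw1 first in WT and opn1lw1 last in both. The order differed only in pde6c, where opn1sw1 stood above opn1sw2 per kilobase of span and below it in FPKM. The distances between levels differed in WT too. There opn1lw2 and opn1sw2 had 2161 and 165 per kilobase of span, but 7404 and 4682 FPKM. The spans include introns, so this scale is not per length of transcript.

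Added up, the 4 opsins came to 7278, 10812 and 8798 FPKM in pde6c replicates 1, 2 and 3, against 19448, 25822 and 21852 FPKM in WT replicates 1, 2 and 3. The pde6c sum was 0.401 of the WT sum, with no overlap (8963 ± 1773 against 22374 ± 3219 FPKM, SD, n = 3 each). A two-sided exact permutation test gave p = 0.1, the smallest that 3 samples against 3 allow. Within this sum the UV opsin took 23.0% to 27.3% in pde6c and 44.3% to 48.4% in WT. The share of opn1lw2 was 39.5% to 48.4% in pde6c and 28.5% to 35.7% in WT, and that of opn1sw2 was 28.1% to 32.8% in pde6c and 18.8% to 23.0% in WT. For opn1lw1 it was 0.227% to 0.544% in pde6c and 0.0426% to 0.0647% in WT. None of these ranges overlapped, so the UV share was lower in every pde6c sample and the other 3 were higher. Green opsins are not part of this sum, and shares of 1 sum depend on each other.

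**Figure D3:**
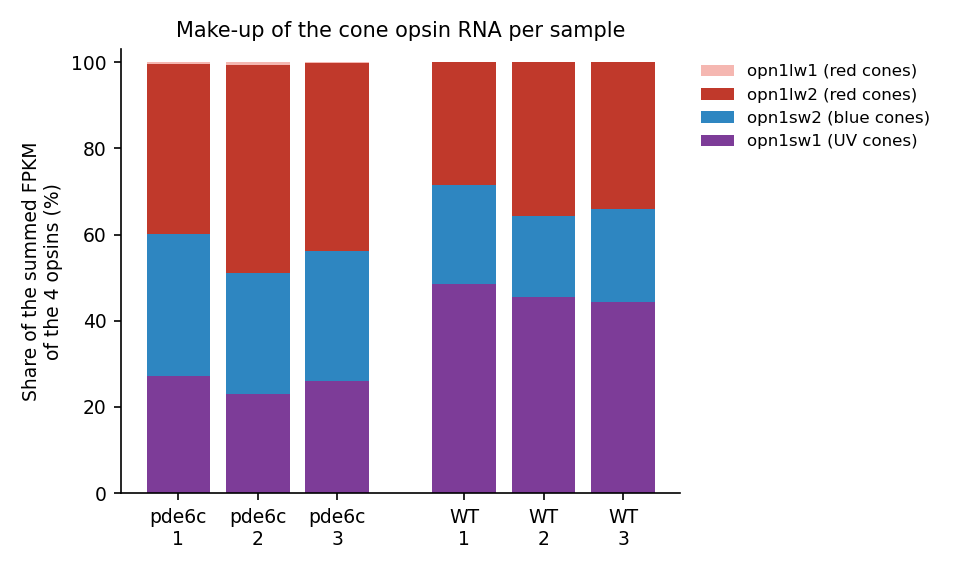
Share of the summed FPKM of the 4 opsins taken by each, in percent, for the 3 pde6c samples (left) and the 3 WT samples (right). The UV opsin at the bottom takes 23.0% to 27.3% in pde6c and 44.3% to 48.4% in WT, while opn1lw1 at the top is below 1% in every sample.

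Ratios between opsins within a sample need no library size and ask whether the opsins changed by the same factor. All 6 pairs were compared by two-sided exact permutation tests, which cannot go below p = 0.1, and p-values were adjusted over the 6. The log2 ratio of UV to blue opsin counts was 0.04, 0.09 and 0.13 in pde6c replicates 1, 2 and 3, against 1.37, 1.64 and 1.39 in WT replicates 1, 2 and 3. The genotypes did not overlap and differed by -1.38 (SE 0.09, exact p = 0.1, adjusted 0.12), more than the spread between replicates. It was also the steadiest ratio in pde6c, with an SD of 0.05 on the log2 scale (n = 3).

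The UV to main red ratio (opn1sw1 to opn1lw2) likewise did not overlap and differed by -1.26 (SE 0.19, exact p = 0.1, adjusted 0.12). In contrast, the ratio of opn1lw2 to opn1sw2 was 0.44, 1.00 and 0.72 on the log2 scale in pde6c replicates 1, 2 and 3, against 0.50, 1.14 and 0.88 in WT replicates 1, 2 and 3. These ranges largely coincided. The difference was -0.12 (SE 0.24, exact p = 0.7, adjusted 0.7), so that red and blue opsin could not be told apart in the size of their change. With this SE, which takes the samples as unpaired, a moderate difference would not have been seen. Each pde6c sample lay slightly below the WT sample of the same number. A two-sided exact sign-flip test on these differences gave p = 0.25, the smallest that 3 pairs allow. Against each of the others, opn1lw1 was higher in pde6c with no overlap, by 2.48 (SE 0.35) to opn1lw2, 2.36 (SE 0.45) to opn1sw2 and 3.74 (SE 0.45) to opn1sw1 on the log2 scale (exact p = 0.1, adjusted 0.12 for each).

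**Figure D4:**
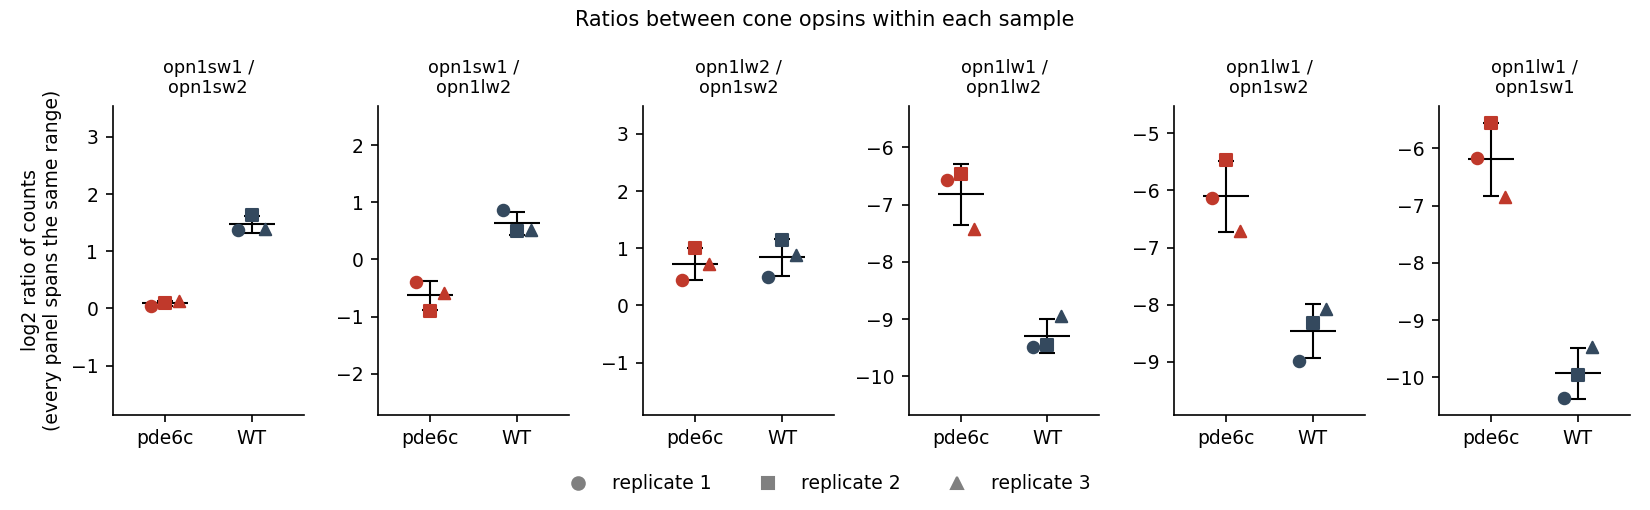
Log2 ratio of the counts of 2 cone opsins in each sample, 1 panel per pair, pde6c on the left and WT on the right. Symbols are samples, lines are means and bars are SDs (n = 3), and all panels span the same number of log2 units. The genotypes overlap for opn1lw2 to opn1sw2 and for no other pair.

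Of the green cone opsins, opn1mw1 fell with a log2 fold change of -1.83 (998, 1332 and 1009 CPM in pde6c against 4106, 3680 and 4056 CPM in WT, adjusted p = 1.32e-06 by edgeR). The copy opn1mw3 rose, with 30, 112 and 38 counts in pde6c against 2, 0 and 0 in WT (adjusted p = 0.00689 by edgeR), while opn1mw2 had 0 counts in every sample but 1201 to 1717 FPKM in pde6c against 88.8 to 91.1 FPKM in WT, and opn1mw4 was listed at 0 FPKM.

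Most tested genes of the rest of the cone phototransduction pathway fell. Of 32 genes listed, 22 were tested, of which 14 fell and none rose at an adjusted p under 0.1 by edgeR, where 2.29% of all genes tested fell. DESeq2 called 16 lower and 0 higher, where 582 of 18351 genes were lower and 502 higher. Limma on log2(FPKM + 1) called 7 of these 22 lower and 0 higher, where 76 of 15782 genes were lower and 80 higher. At an unadjusted p under 0.05 edgeR gave 16 lower and 1 higher. The share of all genes at that threshold was not determined, here or for the lists below. With the replicate number as a block, edgeR called 15 lower and 1 higher, where 591 of 17242 genes were lower and 393 higher. The median log2 fold change was -1.12 over these 22, against 0.00 over all genes. The list was chosen with earlier results of these data known, and whether each listed gene is confined to cones was not tested.

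Genes that pass the opsin signal on fell by differing amounts. Transducin alpha gnat2, the direct target of all cone opsins, had 1054, 1263 and 795 CPM in pde6c replicates 1, 2 and 3, against 4670, 3930 and 3459 CPM in WT replicates 1, 2 and 3. Its groups were far apart, with a log2 fold change of -1.95 (SE 0.17, adjusted p = 3.75e-06 by edgeR). Transducin beta gnb3b fell by 1.51 and transducin gamma gngt2b by 0.98 on the log2 scale, while their copies gnb3a (-0.11, adjusted p = 0.860) and gngt2a (0.12, adjusted p = 0.946) did not pass in edgeR. The channel subunits cnga3a, cngb3.2 and cngb3.1, which carry the cone photocurrent, had log2 fold changes of -1.94, -2.34 and -1.16.

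The genes that act on the opsins themselves split. The opsin kinase grk1b had 161, 195 and 163 CPM in pde6c replicates 1, 2 and 3, against 902, 1051 and 1214 CPM in WT replicates 1, 2 and 3, and its log2 fold change of -2.61 (SE 0.16, adjusted p = 2.03e-07 by edgeR) was the lowest of the list. The kinases grk7a (-1.76) and grk7b (-2.11) fell too. The cone arrestins, which cap phosphorylated opsin, did not pass. For arr3a the levels were 623, 805 and 469 CPM in pde6c against 534, 450 and 344 CPM in WT, and for arr3b 211, 291 and 214 CPM in pde6c against 214, 341 and 199 CPM in WT, with overlap in both. The other genes that fell were rgs9a (-1.49) and gnb5b (-1.25), whose products speed transducin's shut-off, the guanylate cyclase activator guca1c (-2.06), the cyclase gucy2d (-0.83) and the exchanger slc24a2 (-1.09).

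**Figure D5:**
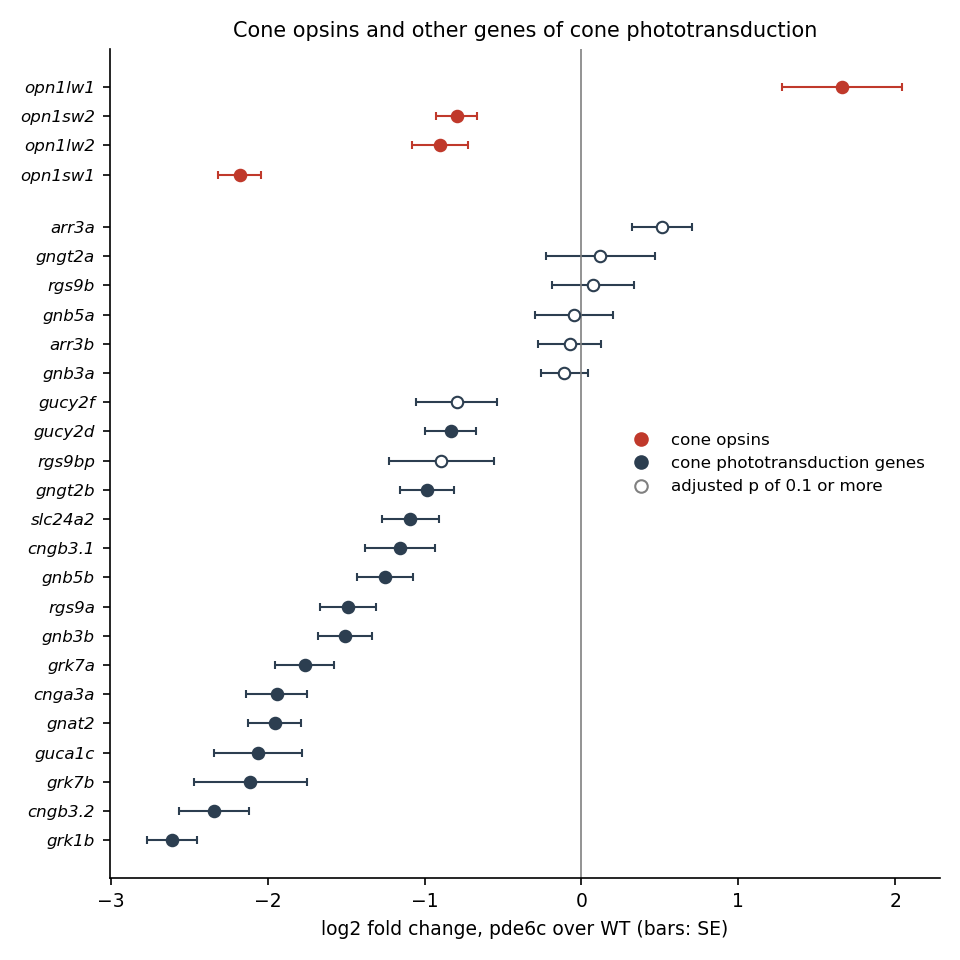
Log2 fold change (pde6c over WT) of the 4 cone opsins (red, top) and of the 22 tested genes of cone phototransduction (dark, below), with bars for the SE. Filled points had an adjusted p under 0.1 by edgeR. opn1sw1 lies among the lowest of the pathway, opn1lw2 and opn1sw2 lie at the upper end of the genes that fell, and opn1lw1 is the only filled point above 0.

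Set against gnat2 within each sample, a comparison added after the values were seen, the opsins fell into separate patterns. The log2 ratio of opn1sw1 to gnat2 was 0.50, 0.47 and 0.93 in pde6c replicates 1, 2 and 3, against 0.63, 1.03 and 0.86 in WT replicates 1, 2 and 3. These ranges overlapped, with a difference of -0.21 (two-sided exact permutation test, p = 0.3). The ratios of opn1lw2 and opn1sw2 were higher in pde6c with no overlap, by 1.05 and 1.17, and that of opn1lw1 by 3.53 (exact p = 0.1 for each, the smallest the design allows). Relative to gnat2, blue and main red opsin were thus higher in every pde6c sample than in any WT sample. For the UV opsin no difference was resolved with 3 samples a group. These ratios restate the fold changes given above and depend on the gene set below the line. A gene that fell less than gnat2, such as gngt2b (-0.98), would give another pattern.

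Genes listed as cone fate factors were measured in the same samples. Most encode transcription factors, but the list also holds gdf6a, a signal gene, and nrl, a rod factor. Of 20 tested, 1 rose and none fell by edgeR, against 1.4% and 2.29% of all genes, and the median log2 fold change was -0.36. At an unadjusted p under 0.05 edgeR gave 5 lower, DESeq2 called 3 lower and limma on log2(FPKM + 1) called 0 lower. Over all genes, in either direction, DESeq2 called 5.91% and limma 0.988%, which also applies to the lists below. The gene that rose was prdm1a, which in the mouse encodes a repressor active in photoreceptor precursors, with 97.1, 109 and 57.9 CPM in pde6c replicates 1, 2 and 3, against 34.4, 22.3 and 25.6 CPM in WT replicates 1, 2 and 3 (log2 fold change 1.68, SE 0.25, adjusted p = 0.00077 by edgeR). The listed genes with the next smallest p in edgeR were six7 (-0.57, adjusted p = 0.105), rx2 (-0.94, adjusted p = 0.112) and samd7 (-0.95, adjusted p = 0.138). None of these passed. Factors needed for 1 of the kinds of cone described here did not pass either. For thrb, needed for red cones, the log2 fold change was -0.36 (adjusted p = 0.433 by edgeR). It was -0.92 for foxq2, needed for blue cones (adjusted p = 0.627 by edgeR), and -0.47 for tbx2b, needed for UV cones (adjusted p = 0.237 by edgeR). These 3 were named in addition to those chosen by p-value. In CPM, foxq2 and tbx2b were lower in every pde6c sample than in any WT sample, which held for 8.75% of all genes tested, while thrb overlapped. The call of foxq2 rested on only 32 to 81 counts per sample (SE 0.61), so a change in it would be hard to detect.

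The outer segment is the membrane stack that holds the opsins. Genes listed for its structure, which include cilium genes such as cep290 and ift88, fell for 8 of 23 tested and rose for none by edgeR. Their median was -0.54, and 2.29% of all genes fell. DESeq2 called 9 lower and 0 higher, limma 4 lower and 0 higher, and 1 was higher at an unadjusted p under 0.05 by edgeR. The 8 that fell by edgeR were prph2b (-1.55), prph2a (-1.29), which encode disc rim proteins, rp1l1b (-1.45), rp1l1a (-0.59), pcdh15a (-1.19), rpgrip1 (-1.61), cep290 (-0.94) and eys (-1.33). In the visual cycle, which returns chromophore to the opsins, 3 of 14 fell and 1 rose by edgeR, against 2.29% and 1.4% of all genes, with a median of -0.07. The retinoid carrier gene rbp3 fell to 17.9, 18.5 and 14.1 CPM in pde6c replicates 1, 2 and 3, against 151, 84.9 and 167 CPM in WT replicates 1, 2 and 3 (log2 fold change -3.00, SE 0.25). The retinal transporter gene abca4a (-0.88) and the retinol dehydrogenase gene rdh8b (-0.64) also fell, and rbp4l rose (1.25).

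Rod phototransduction genes fell for 4 of 15 tested and rose for none by edgeR, with a median of -0.51, against 2.29% of all genes that fell (DESeq2 called 6 lower and 0 higher, limma 1 lower and 0 higher, and 0 were higher at an unadjusted p under 0.05). The listed genes that fell were rcvrna (-1.59), gnat1 (-0.90), saga (-0.64) and rho, the rod opsin. Whether each listed gene is confined to rods was not tested. The rod opsin had 490, 734 and 564 CPM in pde6c replicates 1, 2 and 3, against 1170, 732 and 860 CPM in WT replicates 1, 2 and 3. Its groups overlapped at replicate 2, and its log2 fold change of -0.63 (SE 0.18) passed narrowly (adjusted p = 0.0929 by edgeR). Among the other opsins listed, 2 of 23 fell and none rose by edgeR, with a median of -0.22, against 2.29% of all genes that fell (DESeq2 called 3 lower and 1 higher, limma 1 lower and 0 higher, and 2 were higher at an unadjusted p under 0.05). Those that fell by edgeR were opn6b (-2.26) and the melanopsin opn4.1 (-0.67). Whether these opsins are made outside rods and cones was not tested.

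The genes whose levels ran most like each opsin's were sought by the distance between log2(CPM + 0.5) profiles over the 6 samples, each centred on its mean, among 9476 genes with a mean of at least 10 CPM and a symbol. This is a description, and 6 samples of 2 genotypes share most of their pattern. Nearest to opn1sw2 were drd4a (distance 0.10), a dopamine receptor gene, IGF1 (0.16) and plcl5 (0.22). Nearest to opn1lw2 were CDS1 (0.15), GDPD5 (0.21) and gngt2b (0.24), the transducin gamma gene above. For opn1sw1 they were mef2ab (0.44), si:ch211-276a17.5 (0.44) and PAQR4 (0.46), and for opn1lw1 FNDC4 (0.48), map3k22 (0.63) and ARG2 (0.73). The distances of opn1sw2 and opn1lw2 to their neighbours were smaller than those of opn1lw1 and opn1sw1. Profiles were not scaled, so a distance grows with the size of the change. Distances of different opsins therefore do not show which opsin was followed more closely. The zebrafish dopamine receptor gene drd4a had 34.0, 37.2 and 30.3 CPM in pde6c replicates 1, 2 and 3, against 62.2, 57.9 and 51.7 CPM in WT replicates 1, 2 and 3. The order of samples was that of the CPM of opn1sw2 (1451, 1635 and 1384 in pde6c, 2801, 2569 and 2387 in WT). Because drd4a was picked for its likeness over these same samples, the shared order adds nothing to the distance. Names in capitals are human-style symbols of the zebrafish genes.

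Of 75 tested markers of other cells in or next to the retina, 1 passed by edgeR, where 3.69% of all genes did, and their part in the opsin results was not tested. None of 10 Müller glia, 12 amacrine, 5 horizontal, 8 ganglion cell, 11 pigment epithelium, 5 lens, 10 microglia and 3 cornea and skin markers tested passed, and of 11 bipolar markers only cabp5a did (log2 fold change 2.29). Over the 64 markers outside the bipolar list, 3 were higher and 4 lower at an unadjusted p under 0.05 by edgeR. The share of all genes at that unadjusted threshold was not determined, so these counts cannot be set against it. For the same 64 markers, DESeq2 called 1 higher and 0 lower, and limma called 0. Median log2 fold changes were 0.12 for Müller glia, 0.01 for bipolar, -0.03 for amacrine, -0.64 for horizontal, -0.06 for ganglion cell, 0.24 for pigment epithelium, -0.88 for lens, 0.32 for microglia and 0.24 for cornea and skin markers. Markers of tissue next to the retina were low in both genotypes, apart from pax6b, which the retina expresses too. Summed pigment epithelium markers came to 40.6 to 45.4 CPM in pde6c and 38.8 to 48.3 CPM in WT, and summed lens markers to 2.72 to 4.94 CPM in pde6c and 4.72 to 11.5 CPM in WT. Summed cornea and skin markers came to 391 to 456 CPM in pde6c and 372 to 444 CPM in WT, of which pax6b alone made up 377 to 441 CPM in pde6c and 362 to 435 CPM in WT. The lens markers cryaba and cryba2a and the skin marker epcam had 0 counts in every sample, which in this table can also come from fragments dropped on overlapping spans. Summed bipolar markers came to 1733 to 2064 CPM in pde6c and 1598 to 1901 CPM in WT, and amacrine markers to 2401 to 2770 CPM in pde6c and 2358 to 2426 CPM in WT, as the retina label implies.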

How the data were processed

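Whole retinas of 3 pde6c and 3 WT samples were analysed, each a pool of 3 retinas. Per the labels and the study's methods, the authors amplified the RNA, trimmed reads with Trimmomatic, aligned them with STAR 2.5.3a to GRCz10 and deposited raw counts from featureCounts 1.5.2. They also deposited FPKM from Cufflinks 2.2.1, whose options are not given in the sources used here and from which no depth can be read. Counts were analysed with edgeR 4.0.16 in R 4.3.3: filterByExpr with a minimum count of 10, TMM scaling, and the quasi-likelihood test of genotype, with Benjamini-Hochberg adjustment over 17242 genes and a threshold of 0.1 on the adjusted p. SEs are those implied by the F statistic. Alternatives were DESeq2 1.42.0, other scalings and filters, a replicate block, limma 3.58.1 on log2(FPKM + 1) over genes that reached 1 FPKM in 3 or more samples, and leaving out each sample. The edgeR and DESeq2 fits were tested on simulated data with known changes before use.

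Single values and ratios were compared by exact permutation tests in scipy 1.17.1. Samples were grouped by their labels. The members, lists and tests were chosen with earlier results of these data known. Named genes were the 4 opsins, pde6c, green opsins, rho, gnat2, genes of each list with the smallest p (up to 4) or passing the test, and the 3 nearest genes to each opsin. Named in addition, after their values were seen, were arr3a, arr3b, gnb3a, gngt2a, thrb, foxq2, tbx2b, pax6b and 3 markers without counts. Other single genes of marker lists where none passed are left out. Of 265 listed symbols, 235 were matched to identifiers, 107 directly and 128 through a human symbol and the chromosome. FPKM columns were matched to samples by name. No sequences were used here.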

Additional observations from a re-analysis of the deposited data

How the results depend on the processing

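Every alternative kept the direction of the 4 opsin fold changes, and the fits on counts with all 6 samples kept their calls, as did those with the replicate block (1.57 for opn1lw1, -0.92 for opn1lw2, -0.80 for opn1sw2, -2.18 for opn1sw1). Limma on log2(FPKM + 1) gave 1.40, -0.91 and -0.81 for opn1lw1, opn1lw2 and opn1sw2, none called. It called 9 of 27 cone phototransduction genes, and 156 of 15782 genes in all. Without a filter it gave the same 3 values, none called, with 5 pathway genes and 67 of 24344 genes called. On log2(FPKM + 0.1) it gave 1.47, -0.91 and -0.81, none called, with 7 pathway genes and 107 of 15782 genes called. With a variance trend, added after seeing the data, it gave 1.40, -0.91 and -0.81, none called. It then called 11 pathway genes, and 205 of 15782 genes in all. The pathway count thus moved with the number of genes called in all. Why limma did not call these 3 opsins was not tested. With 1 sample left out, log2 fold changes ran from 1.18 to 1.96 (opn1lw1), -1.14 to -0.74 (opn1lw2), -0.87 to -0.72 (opn1sw2) and -2.26 to -2.09 (opn1sw1). In these fits 14 to 15 pathway genes were called, and 414 to 537 of the 17656 to 17789 genes tested. The log2 ratio of opn1lw2 to opn1sw2 ran from -0.29 to 0.03 and changed sign without pde6c replicate 1 (0.02) or WT replicate 2 (0.027). Over all genes, 636 were called by edgeR, 1084 by DESeq2 (502 higher, 582 lower) and 156 by limma on log2(FPKM + 1). With the replicate block, edgeR called 984 (393 higher, 591 lower). Between genotypes, same-numbered samples correlated by 0.12, 0.05 and 0.04, and samples of unlike number by -0.06 to 0.004. The same-numbered values were thus the highest, but small, and these samples were not taken as pairs in the main fit. Without TMM, the median log2 fold change of all genes was 0.08, against 0.00, and the split was 337 higher and 332 lower, against 241 and 395. Precision is limited by 3 samples a group and, for opn1lw1, by 125 to 791 counts.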
